A study of Mus musculus with 4 samples.

Results

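The urea cycle is represented here by 10 genes, chosen by symbol from the 21959 gene IDs of the deposited matrix, and all 10 were found. They are the enzyme genes Cps1, Otc, Ass1, Asl and Arg1, the second arginase gene Arg2, the activator synthase gene Nags, the sirtuin gene Sirt5, and the mitochondrial carrier genes Slc25a13 and Slc25a15. RNA was sequenced from 4 mouse livers, all of WT genotype and all in acute-on-chronic liver failure (ACLF), a sudden loss of liver function on top of long-standing liver disease. The mice of 2 livers were given baicalein, a flavone from Scutellaria root, and those of the other 2 livers were given saline. The labels give no strain, sex, age, dose, collection time or inducing agent, and no liver without ACLF was analysed here. Whether each liver is from a separate animal is not stated, and p-values thus reflect the scatter among these 4 samples, part of which may be technical.

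The urea cycle turns ammonia, which is toxic to the brain, into urea for excretion, and the complete cycle runs in hepatocytes, most strongly in those around the portal veins. Its opening steps take place in mitochondria, where CPS1 joins ammonia and bicarbonate into carbamoyl phosphate and OTC passes this to ornithine to give citrulline. The later steps take place in the cytosol, where ASS1 and ASL build arginine and arginase 1 splits it into urea and ornithine. Carriers in the inner mitochondrial membrane bring ornithine in, take citrulline out and supply the aspartate that ASS1 uses.

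Counts per liver summed to 14766061 and 18731616 with baicalein and to 17673137 and 13976440 with saline, so that 3 counts equal 0.160 to 0.215 CPM (counts scaled to a common library size) in a single library. The libraries differ in 3 more ways than by their label. Genes of the Y chromosome (Ddx3y, Eif2s3y, Kdm5d and Uty) had 2 and 1 counts in the baicalein livers, against 820 and 836 in the saline livers. Of 12 clock genes tested, 8 rose and 3 fell in baicalein livers. Over all genes tested, 7.65% rose and 7.9% fell at an adjusted p below 0.05 (edgeR). The summed level of 12 skeletal muscle markers was 1.10 and 2076 CPM in baicalein 1 and 2, against 6399 and 1.46 CPM in saline 1 and 2, so 1 liver of each group carried muscle RNA. The Y-linked counts and the clock genes divide the livers as the treatment does, and cannot be told apart from it in any comparison given here. Livers with and without muscle RNA are compared with their own kind beside the results. In whole liver RNA, fewer cells of a type and less RNA per cell cannot be told apart.

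Per gene length, the cycle was dominated by 3 of its enzymes. The deposited FPKM (reads divided by gene length and by library total) summed over the 10 genes to 4361 and 4296 in the baicalein livers, against 2920 and 2841 in the saline livers. Ass1 held the largest part of this sum, with 40.1% and 39.1% in the baicalein livers and 42.6% and 40.8% in the saline livers. Cps1 followed with 32.1% and 34.2% against 30.9% and 31.4%, and Arg1 with 19.3% and 18.3% against 15.3% and 15.7%. In every liver Ass1 ranked 1, Cps1 ranked 2 and Arg1 ranked 3 in FPKM. Within each group these ranks did not overlap, since the lowest FPKM of the higher gene exceeded the highest of the next.

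**Figure D1:**
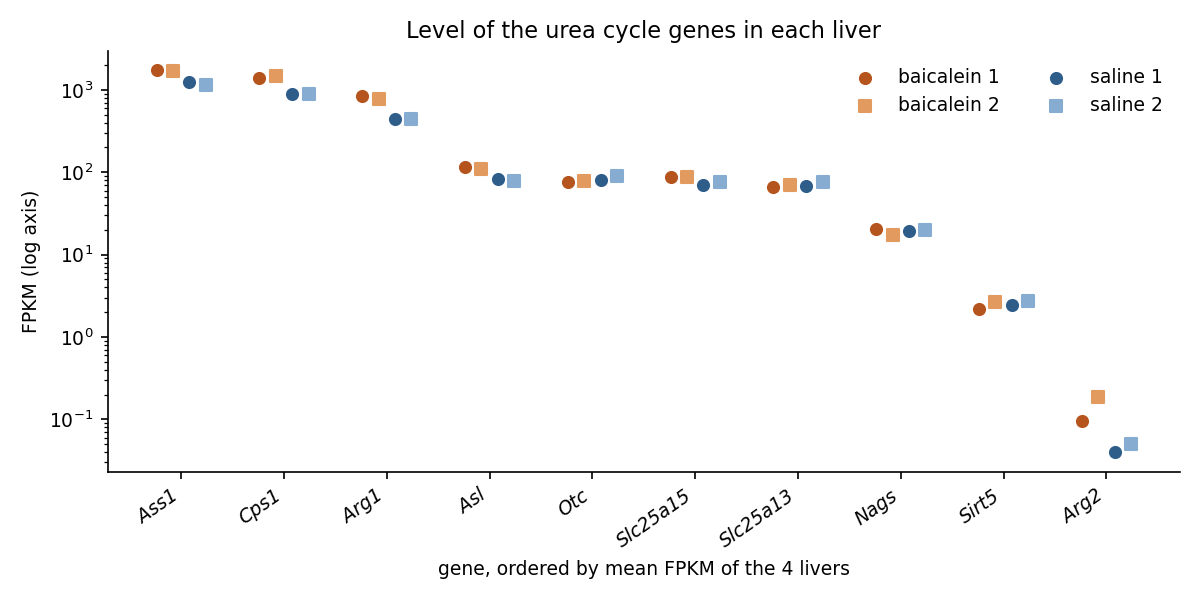
Deposited FPKM (log axis) of the 10 genes, ordered by their mean over the 4 livers, with 1 point per liver and baicalein left of saline. Ass1, Cps1 and Arg1 lie above 445 FPKM in every liver, 4 genes lie between 67.0 and 114 FPKM, and Arg2 lies below 0.187 FPKM.

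A middle group of Asl, Otc, Slc25a15 and Slc25a13 followed at 67.0 to 114 FPKM. Their order was not fixed. Asl lay above Otc in both baicalein livers and overlapped with it in the saline livers, whereas Otc lay below Slc25a15 in both baicalein livers and above it in both saline livers. Nags was lower, at 17.5 to 20.5 FPKM, and Sirt5 lower again, at 2.19 to 2.77 FPKM. Arg2 was at 0.0396 to 0.187 FPKM, so that nearly all arginase RNA of these livers came from Arg1.

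Among the 5 enzymes of the cycle proper, Cps1, Ass1, Asl and Arg1 rose in baicalein livers by 1.33 to 1.73 times and Otc did not pass the test. Of the 9 genes of the 10 with enough counts to be tested, 4 rose and none fell at an adjusted p below 0.05. Over all 12657 genes tested, 7.65% were called higher and 7.9% lower. The median log2 fold change of the 9 genes was 0.17, beside 0.01 over all genes tested. No member was lower at an unadjusted p below 0.05 in edgeR (quasi-likelihood test, Benjamini-Hochberg adjustment), and DESeq2 likewise called 4 higher and 0 lower, beside 6.36% and 7.56% of the genes it tested. In CPM, both baicalein livers lay above both saline livers for 5 of the 9 genes and below them for 3, where over all genes tested 29.7% lay above and 29.5% below.

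The calls of the 4 enzymes rest on both saline livers. Without saline 1 or without saline 2 none of the 4 was called, with adjusted p from 0.0746 to 0.508, although with either of them left out the log2 fold changes stayed between 0.36 and 0.80. Without baicalein 1, Cps1 and Arg1 were called and Ass1 and Asl were not, and without baicalein 2 all 4 were called.

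Cps1 (ENSMUSG00000025991, chromosome 1, 67162185 to 67270418) encodes the enzyme that commits ammonia to the cycle. It had 114948 and 152748 counts in the baicalein livers, against 88658 and 69350 counts in the saline livers. Scaled to library size these are 7905 and 7621 CPM with baicalein against 5212 and 5058 CPM with saline. Both baicalein livers were higher, and the livers within a group lay close together. The means were 7763 ± 201 CPM and 5135 ± 109 CPM (SD, n = 2 each). The log2 fold change was 0.60 with an SE of 0.11 (adjusted p = 0.00708, edgeR).

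Ass1 (ENSMUSG00000076441, chromosome 2, 31360219 to 31410684) encodes argininosuccinate synthase, which joins citrulline and aspartate and so brings in the other nitrogen atom of urea. Its levels were 4290 and 3788 CPM in the baicalein livers, against 3123 and 2852 CPM in the saline livers. The groups did not overlap, and in each group the 2 livers lay further apart than for Cps1. The log2 fold change was 0.44 (SE 0.12, adjusted p = 0.0381, edgeR).

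Asl (ENSMUSG00000025533, chromosome 5, 130040099 to 130058088) encodes argininosuccinate lyase, which splits the product of ASS1 into arginine and fumarate. It was at 562 and 492 CPM with baicalein, against 410 and 382 CPM with saline. The log2 fold change of 0.41 (SE 0.11, adjusted p = 0.0359, edgeR) was close to that of Ass1. The ratio of Ass1 to Asl in FPKM hardly moved between livers, at 15.3 and 15.4 in the baicalein livers and 15.2 and 14.9 in the saline livers.

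Arg1 (ENSMUSG00000019987, chromosome 10, 24791119 to 24803382), the liver arginase gene that ends the cycle, showed the largest fold change of the 9 tested genes. Counts were 27645 and 32747 with baicalein, against 17631 and 13870 with saline. This is 1901 and 1634 CPM in the baicalein livers, against 1036 and 1012 CPM in the saline livers. The log2 fold change was 0.79 (SE 0.11, adjusted p = 0.00238, edgeR), a 1.73-fold higher level. Arg1 is also a gene of alternatively activated macrophages, and 10 of 12 macrophage markers tested rose as well and none fell (12 higher and 0 lower at an unadjusted p below 0.05 in edgeR, 11 and 0 with DESeq2). Beside this, 7.65% of all genes tested were called higher and 7.9% lower in edgeR. The 12 markers together summed to 1150 and 1011 CPM with baicalein, against 672 and 589 CPM with saline, and none was at 0. The part of macrophages in the level of Arg1 was not tested. Per FPKM of Adgre1, a pan-macrophage gene, Arg1 had 44.3 and 45.5 FPKM with baicalein, against 47.1 and 60.9 FPKM with saline. This ratio depends on the marker taken as divisor. The log2 fold changes of the 12 markers ran from 0.40 to 1.73 with a median of 0.78, and that of Adgre1 was 1.03.

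Arg2 (ENSMUSG00000021125, chromosome 12, 79177551 to 79203075) encodes the mitochondrial arginase, known mainly from kidney and other tissues outside the liver. It had 2 and 5 counts in the baicalein livers, against 1 and 1 in the saline livers, too few to be tested. The ratio over the group sums was 3.11, with an exact 95% counting interval of 0.592 to 30.7 that includes no difference. This interval covers counting error only.

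Otc (ENSMUSG00000031173, chromosome X, 10118544 to 10187263), which encodes the mitochondrial enzyme between CPS1 and ASS1, was not among the genes that rose. It had 4807 and 6219 counts with baicalein, against 6063 and 5281 with saline, or 331 and 310 CPM against 356 and 385 CPM. Both baicalein livers were slightly below both saline livers. The log2 fold change was -0.21 (SE 0.10, adjusted p = 0.210, edgeR) and did not pass. Otc is X-linked, and its values come from groups that also differ in Y-linked counts, as given above.

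**Figure D2:**
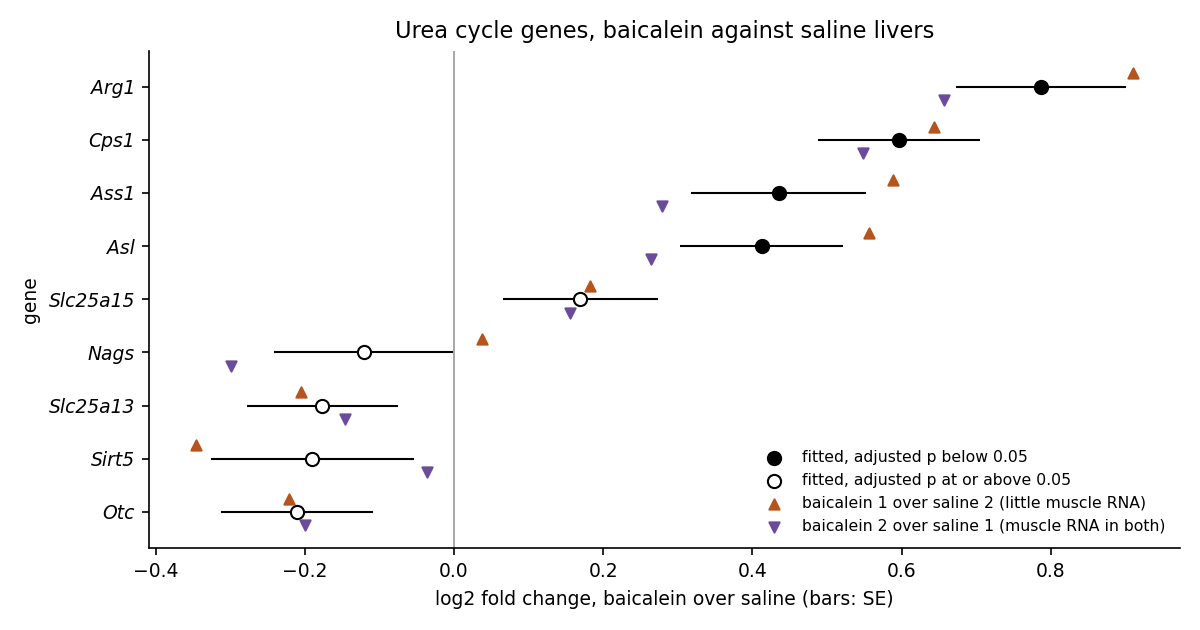
Log2 fold change of baicalein over saline for the 9 tested genes (circles, bars show SE, filled where the adjusted p was below 0.05), with the ratio between the 2 livers with little muscle RNA (up triangles) and between the 2 livers that carried it (down triangles). Arg1, Cps1, Ass1 and Asl lie right of 0 in both comparisons, and Otc, Slc25a13 and Sirt5 lie left of 0 in both.

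Since 1 liver of each group carried muscle RNA, livers of a kind were also set against each other. Between baicalein 1 and saline 2, which had little of it, the log2 CPM ratios were 0.64 for Cps1, 0.59 for Ass1, 0.56 for Asl and 0.91 for Arg1. Between baicalein 2 and saline 1, which both carried it, they were 0.55 for Cps1, 0.28 for Ass1, 0.26 for Asl and 0.66 for Arg1. All 4 genes were higher with baicalein in either comparison, and each ratio was smaller between the livers with muscle RNA. For Otc the ratios were -0.22 and -0.20. These ratios are between single livers and carry no test.

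Dividing 1 gene by another within a liver removes library scaling, and Otc was taken as the divisor because it did not move with the other enzymes. The choice was made after its values had been seen. Per FPKM of Otc, Cps1 stood at 18.3 and 18.8 FPKM in the baicalein livers, against 11.2 and 10.03 FPKM in the saline livers. Arg1 stood at 10.9 and 10.02 FPKM with baicalein, against 5.54 and 4.999 FPKM with saline. Ass1 stood at 22.8 and 21.5 FPKM with baicalein, against 15.4 and 13.01 FPKM with saline. Asl stood at 1.49 and 1.39 FPKM with baicalein, against 1.01 and 0.871 FPKM with saline. For these 4 enzymes the ratio to Otc was shifted in both baicalein livers, by 1.53 to 1.99 times in the group means. The direction of this shift followed from the choice of divisor. Its size includes the log2 fold change of Otc itself (-0.21, not called). With 2 livers a group an exact permutation test (two-sided) cannot give a p below 0.333, so the shift was not tested.

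**Figure D3:**
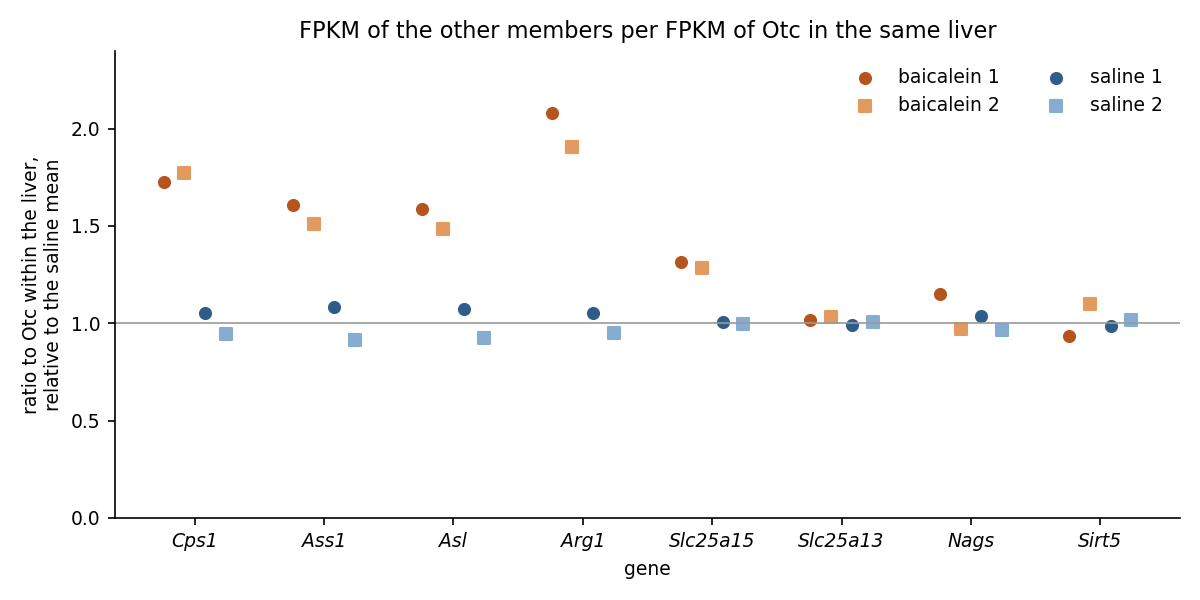
FPKM of each gene per FPKM of Otc in the same liver, divided by the mean of the 2 saline livers (grey line at 1), with baicalein left of saline. Cps1, Ass1, Asl and Arg1 are raised in both baicalein livers, Slc25a15 less so, and Slc25a13, Nags and Sirt5 stay near the line.

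Upstream sequence is shown for Ass1, which rose, and Otc, which did not pass the test, as a pair of neighbouring enzymes whose fold changes differed in sign. Cps1 and Otc were another such pair. Of the 10 genes, 6 have an entry in the RefSeq promoter table, and of the 4 that rose Ass1 is the 1 that does. The 250 bases before the start site follow 5′ to 3′ from RefSeq on GRCm38.p6, chr2:31470020-31470269 on the plus strand for Ass1 and chrX:10252055-10252304 on the plus strand for Otc. Capitals mark every match to the motifs named after them.
Ass1: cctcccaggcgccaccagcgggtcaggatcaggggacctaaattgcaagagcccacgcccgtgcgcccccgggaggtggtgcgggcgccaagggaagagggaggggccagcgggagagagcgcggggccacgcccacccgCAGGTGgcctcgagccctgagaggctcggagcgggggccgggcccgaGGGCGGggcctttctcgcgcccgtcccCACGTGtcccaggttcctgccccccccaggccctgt
Otc: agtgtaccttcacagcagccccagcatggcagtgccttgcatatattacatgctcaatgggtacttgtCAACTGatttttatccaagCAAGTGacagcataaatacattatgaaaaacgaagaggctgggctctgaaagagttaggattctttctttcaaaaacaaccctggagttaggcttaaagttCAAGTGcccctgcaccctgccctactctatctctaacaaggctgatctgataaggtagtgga

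The Ass1 stretch was rich in G and C (75.6%) and the Otc stretch was not (43.6%), where the median over 32851 such stretches was 52.4%. Both strands were searched. The Ass1 stretch held a GC box (GGGCGG, the motif of Sp1-like factors) at -63 to -58 from the start, and 2 E-boxes (CANNTG, bound by helix-loop-helix factors). The E-box at -36 to -31 reads CACGTG, a form that every CANNTG search also finds and that clock activators are known to bind. The Otc stretch held 3 E-boxes, none of them CACGTG, and no GC box. GGGCGG was found upstream of 4 of the 6 genes with an entry, the others being Nags, Slc25a15 and Sirt5, none of which passed the test. Of all stretches 66.2% held CANNTG, 6.02% held CACGTG and 32.7% held GGGCGG. Among the 6, CACGTG was also found upstream of Slc25a13 and of 1 of the 2 starts of Slc25a15, neither of which passed the test. The letters TTGCNNAA of C/EBP factors matched in none of the 6, and in 9.56% of all stretches. AGAACA of the glucocorticoid receptor also matched in none of the 6, and in 16.1% of all stretches. The TATA box letters TATAAA matched in none of the 6, and in 12.4% of all stretches. TGACG (cAMP-responsive factors) matched in 1 of the 6 and CAAAG (HNF4) in 2, against 17.8% and 48.6% of all stretches. A match of letters is a description and not a binding site.

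The genes that supply or tune the mitochondrial steps did not pass the test. Nags (ENSMUSG00000048217, chromosome 11, 102036339 to 102040303) encodes the enzyme that makes N-acetylglutamate, without which CPS1 is inactive. It was at 58.9 and 46.5 CPM with baicalein, against 57.2 and 57.4 CPM with saline. The groups overlapped, and the log2 fold change of -0.12 (SE 0.12, adjusted p = 0.562, edgeR) turned to 0.04 without baicalein 2. Per FPKM of Nags, Cps1 stood at 68.5 and 83.7 FPKM in the baicalein livers, against 46.6 and 45.0 FPKM in the saline livers. Sirt5 (ENSMUSG00000054021, chromosome 13, 43518972 to 43548679) encodes a mitochondrial sirtuin known to remove acyl groups from CPS1. It was at 13.5 and 15.0 CPM with baicalein, against 15.4 and 17.2 CPM with saline (log2 fold change -0.19, SE 0.14, adjusted p = 0.406, edgeR).

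The carriers parted slightly. Slc25a15 (ENSMUSG00000031482, chromosome 8, 22865567 to 22888613) encodes ORNT1, which exchanges ornithine for citrulline across the inner membrane. It was at 501 and 459 CPM in the baicalein livers, against 412 and 442 CPM in the saline livers, with no overlap. Its log2 fold change of 0.17 (SE 0.10, adjusted p = 0.323, edgeR) did not pass. Slc25a13 (ENSMUSG00000015112, chromosome 6, 6041218 to 6217173) encodes citrin, the liver aspartate-glutamate carrier. It was at 259 and 246 CPM with baicalein, against 272 and 298 CPM with saline (log2 fold change -0.18, SE 0.10, adjusted p = 0.289, edgeR). The ratio of Slc25a15 to Slc25a13 in FPKM was 1.31 and 1.26 in the baicalein livers, against 1.02 and 1.00 in the saline livers, which was not tested.

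Each carrier has a close relative. Slc25a2, encoding a further ornithine carrier, had 2 and 0 counts with baicalein, against 1 and 2 with saline, too few to be tested. Slc25a12, the aspartate-glutamate carrier of muscle and brain, was at 19.7 and 37.8 CPM with baicalein, against 40.2 and 26.0 CPM with saline (log2 fold change -0.20, SE 0.51, adjusted p = 0.858, edgeR). Its higher liver in each group was the liver with muscle RNA. In FPKM, Slc25a13 exceeded Slc25a12 by 25.3 and 12.6 times in the baicalein livers, against 13.1 and 22.1 times in the saline livers.

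Around the cycle, of 20 tested genes in a list for ammonia, glutamate and glutamine handling, 6 rose, 2 fell and 12 did not pass. Over all genes tested 7.65% were higher and 7.9% lower, and 2 of 20 lower lies near that share. The median log2 fold change of the list was 0.17. Got1, the cytosolic aspartate aminotransferase gene, had the largest change. It was at 378 and 348 CPM in the baicalein livers, against 149 and 141 CPM in the saline livers (log2 fold change 1.33, SE 0.10, adjusted p = 7.72e-05, edgeR). Its mitochondrial counterpart Got2, named after its values had been seen, was at 535 and 486 CPM with baicalein, against 658 and 619 CPM with saline, and did not pass (log2 fold change -0.32, adjusted p = 0.0734, edgeR). The ratio of Got1 to Got2 in FPKM was 1.34 and 1.36 in the baicalein livers, against 0.429 and 0.433 in the saline livers.

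Sds, encoding serine dehydratase, which releases ammonia from serine, rose by 1.14 on the log2 scale (SE 0.09). Slc1a2, encoding a glutamate transporter found in hepatocytes near the central vein, rose by 1.13 (SE 0.12). Slc38a3, encoding a glutamine transporter, rose by 0.54 (SE 0.11) and Gls2, the liver glutaminase gene, which feeds ammonia to CPS1, by 0.48 (SE 0.11). Amt, of the glycine cleavage system, fell by 0.48 on the log2 scale (SE 0.10). Gls2 was not called with either saline liver or baicalein 1 left out (adjusted p up to 0.320), Slc38a3 not without saline 1 or without saline 2 (up to 0.260), and Amt was not called without saline 2 or without baicalein 2 (up to 0.129). Glul, the glutamine synthetase gene that takes up the ammonia the cycle leaves, was looked at after the values had been seen. It was at 1854 and 1715 CPM with baicalein, against 1335 and 1479 CPM with saline, and did not pass (log2 fold change 0.34, SE 0.11, adjusted p = 0.0709, edgeR).

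**Figure D4:**
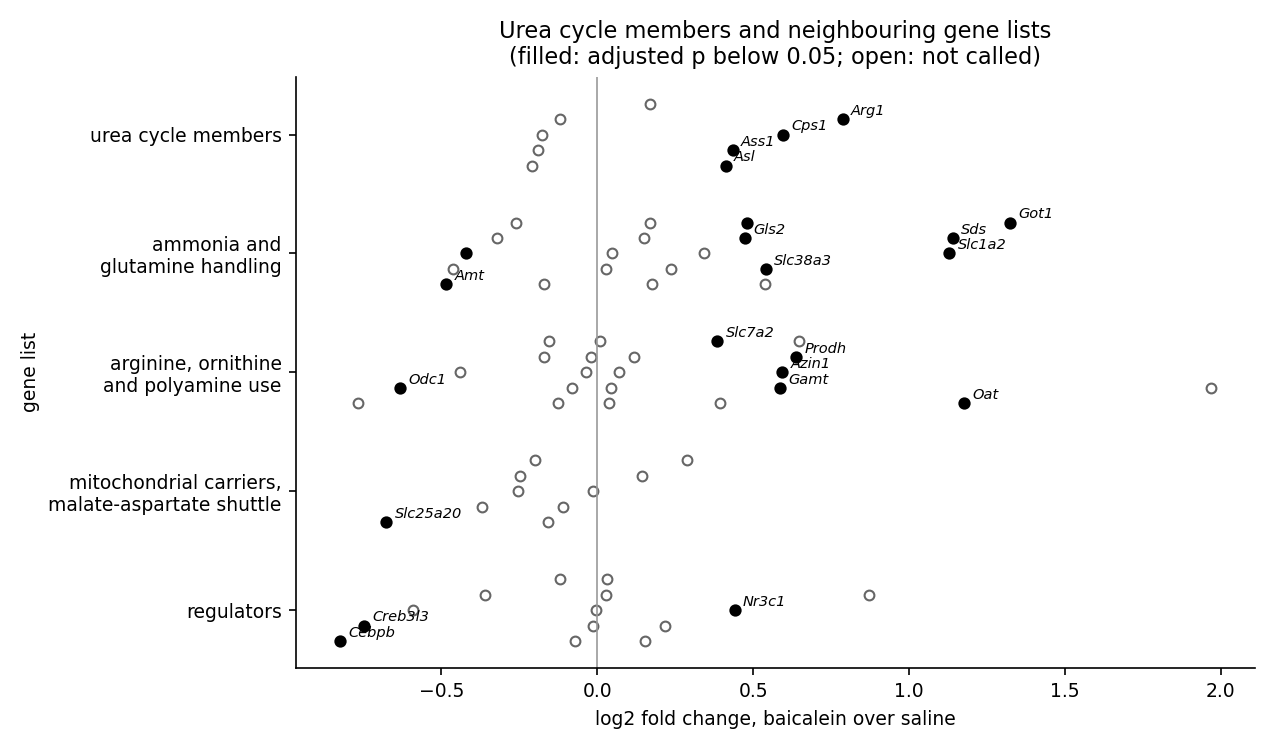
Log2 fold change of baicalein over saline for the tested genes of the urea cycle and of 4 neighbouring lists, filled where the adjusted p was below 0.05, with up to 6 called genes of smallest p named in each list. Filled points lie on both sides of 0 in the ammonia, arginine and regulator lists and right of 0 among the urea cycle genes.

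Of 22 tested genes that use arginine and ornithine, 5 rose, 1 fell and 16 did not pass, with a median log2 fold change of 0.04. The shares over all genes tested were 7.65% higher and 7.9% lower. Oat, encoding the aminotransferase that turns ornithine toward glutamate, was at 1496 and 1543 CPM in the baicalein livers, against 737 and 606 CPM in the saline livers (log2 fold change 1.18, SE 0.12, adjusted p = 4.19e-04, edgeR). Prodh, which breaks down proline, rose by 0.64 (SE 0.11), Azin1, which relieves inhibition of ornithine decarboxylase, by 0.59 (SE 0.10) and Gamt, of creatine synthesis, by 0.59 (SE 0.15). Slc7a2, encoding the hepatic carrier for arginine and other cationic amino acids, rose by 0.38 (SE 0.10). Odc1, encoding ornithine decarboxylase itself, fell by 0.63 on the log2 scale (SE 0.11, adjusted p = 0.00584, edgeR). Prodh was not called without saline 2, Azin1 without saline 1, and Gamt and Slc7a2 with either saline liver or baicalein 1 left out (adjusted p at most 0.374). The inducible nitric oxide synthase gene Nos2, whose product competes with arginase for arginine in macrophages, was also named after its values had been seen. It had 0 and 10 counts with baicalein, against 11 and 3 with saline, too few to be tested. The higher liver of each group was the one with muscle RNA.

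Among other mitochondrial carriers and genes of the malate-aspartate shuttle, 1 of 10 tested fell and none rose, with a median log2 fold change of -0.18. The shares over all genes tested were 7.9% lower and 7.65% higher, and 1 of 10 lower lies near them. No gene of this list was higher at an unadjusted p below 0.05 in edgeR, nor called higher by DESeq2 (0 genes in each). The gene that fell was Slc25a20, the carnitine-acylcarnitine carrier of fatty acid oxidation (98.9 ± 9.70 CPM with baicalein and 158 ± 2.05 CPM with saline, SD, n = 2 each, log2 fold change -0.68, SE 0.10, adjusted p = 0.00323, edgeR). Mdh2, the mitochondrial malate dehydrogenase gene, gave a log2 fold change of -0.37 (adjusted p = 0.0567, edgeR).

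Of 14 regulators of urea cycle genes or of liver metabolism, 1 rose, 2 fell and 11 did not pass, with a median of -0.01. Over all genes tested 7.65% rose and 7.9% fell, and 1 of 14 higher lies near that share. Nr3c1, encoding the glucocorticoid receptor, rose by 0.44 on the log2 scale (SE 0.12, adjusted p = 0.0363, edgeR), a call that was lost without saline 1, baicalein 1 or baicalein 2 (adjusted p up to 0.229) and with DESeq2. Creb3l3, encoding a liver transcription factor of the CREB family, was at 264 and 241 CPM in the baicalein livers, against 408 and 440 CPM in the saline livers (log2 fold change -0.75, SE 0.10, adjusted p = 0.00197, edgeR). Without saline 2 its adjusted p was 0.0504. Cebpb, encoding C/EBP beta, fell by 0.83 on the log2 scale (SE 0.16) and was not called without saline 1 or without saline 2 (adjusted p up to 0.149). Of 3 tested channels for urea and glycerol none was called or had an unadjusted p below 0.05 in edgeR, and 1 was called higher by DESeq2. Aqp9, the main hepatocyte channel among them, was at 635 and 567 CPM with baicalein, against 587 and 656 CPM with saline. Slc14a1, a urea transporter gene, was at 0.756 and 9.03 CPM with baicalein, against 0.470 and 0.365 CPM with saline (log2 fold change 3.53, SE 1.64, adjusted p = 0.318, edgeR). Most of its difference lay in baicalein 2.

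The deposited table itself annotates 20 genes to the KEGG pathway of arginine biosynthesis, which overlaps with the lists above. Of the 17 tested, 8 rose and none fell, beside 7.65% higher and 7.9% lower over all genes tested. The median log2 fold change of the 17 was 0.41. In edgeR 1 was lower at an unadjusted p below 0.05, and DESeq2 called 9 higher and 1 lower. The 8 were Cps1, Ass1, Asl, Arg1, Got1 and Gls2, given above, with Gpt, encoding an alanine aminotransferase (0.52, SE 0.11), and Acy1, encoding aminoacylase 1 (0.61, SE 0.10). Gpt was not called with either saline liver or baicalein 1 left out, and Acy1 not without baicalein 1. Gpt and Acy1 were named after their values had been seen.

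Hepatocyte markers bear on these levels because the cycle belongs to hepatocytes. Of 9 tested, Alb rose, none fell and 8 did not pass, beside 7.65% higher and 7.9% lower over all genes tested. The median log2 fold change of the 9 was 0.06. In edgeR 3 were higher and 3 lower at an unadjusted p below 0.05, and DESeq2 called 3 higher and 3 lower. Their summed level was 133508 and 112607 CPM in the baicalein livers, against 99729 and 95381 CPM in the saline livers, most of it Alb (log2 fold change 0.57, SE 0.14, adjusted p = 0.0237, edgeR). The log2 fold changes of the 9 markers ran from -0.49 to 0.57, and Alb was the highest, so ratios to Alb depend on this choice of divisor. Per FPKM of Alb, Cps1 stood at 0.0380 and 0.0433 FPKM with baicalein and 0.0393 and 0.0401 FPKM with saline, and the groups overlapped. Arg1 stood at 0.0228 and 0.0231 FPKM, against 0.0195 and 0.0200 FPKM. Otc stood at 0.00208 and 0.00231 FPKM with baicalein, against 0.00352 and 0.00400 FPKM with saline.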

How the data were processed

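RNA of 4 livers was measured, and 1 table holds the values the authors deposited. Per the file headers it gives a whole-number read count and an FPKM value per gene and liver, with gene length and position. Columns were matched to livers by title, and groups came from the labels. Per the submitters' processing notes the build was mm10, while the sources used here name no aligner or counter. Only 514 of 21851 gene IDs have identical start and end in GENCODE M21 (mm10), so positions are printed as the table gives them, of a build not stated. The RefSeq stretches are on GRCm38.p6 and were not mixed with them. For the 10 members, the count implied by FPKM, length and library total differed from the deposited count by at most 0.00387%.

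Counts were filtered (filterByExpr, 12657 genes kept), TMM-scaled and put through edgeR 4.0.16 (R 4.3.3; robust quasi-likelihood, two-sided, no covariate), with Benjamini-Hochberg adjustment over all genes tested and a threshold of 0.05. Adjusted p-values in the report are of this fit unless another tool is named. The SE given is the absolute log2 fold change divided by the square root of the F statistic of this fit. CPM are counts over the normalised library size. FPKM, as the authors deposited it, was used for levels between genes and for ratios. The same script was tested on simulated data with known changes and 1 dispersion for all genes. It called 9 of 96 genes changed by 1 on the log2 scale and 88 of 99 changed by 2. Of 12278 unchanged genes it called 4. Small changes can thus be missed, and a gene that did not pass is not shown to be unchanged. Single genes differ in dispersion, so these rates need not hold for each member. The members and lists were chosen with earlier results of these data known. Named were all 10 members and, from each pathway list, called genes (at most the 6 of smallest p) or, where fewer than 2 passed, those of smallest p up to 2, with Slc25a12 and Slc25a2 as relatives of 2 members. Marker and clock lists are given as counts, sums, medians and ranges, with Adgre1 and Alb also used as divisors. Tf of the hepatocyte list is not among the table's symbols. The alternatives tried were RLE size factors, DESeq2 1.42.0, no count filter, a minimum mean CPM of 1, a block for the replicate number, and leaving out each liver in turn. Fits with crosswise pairs of livers were added after seeing the data.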

Additional observations from a re-analysis of the deposited data

How the results depend on the processing

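All 4 urea cycle genes that rose were also called with RLE size factors, DESeq2, no filter and a mean CPM of at least 1, and no member was called lower under any of the 10 alternatives. The weak point is the number of livers: with 1 left out, 0 to 4 members were called higher, against 521 to 665 of all genes higher and 535 to 663 lower, and fewer degrees of freedom remain by construction. The log2 fold change of Nags ran from -0.31 to 0.0436 in these fits, and the cause was not tested. Over the same fits, calls in the ammonia list were 3 to 7 higher and 0 to 3 lower, in the arginine list 2 to 5 higher, among regulators 0 to 1 higher and 0 to 2 lower, among channels 0 to 1 higher, and in the KEGG list 2 to 9 higher and 0 to 1 lower.

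Livers of the same number deviated against each other (correlation -0.77). Muscle RNA was in baicalein 2 and saline 1, which bear different numbers. Whether the titles' numbers pair the livers cannot be decided from this 1 value. With the replicate number as a block, 531 genes were higher and 601 lower, 2 members were higher (Cps1 and Arg1), the ammonia list had 3 higher and 0 lower, regulators 1 lower and the KEGG list 5 higher. With crosswise pairs (baicalein 1 with saline 2, baicalein 2 with saline 1), 1809 genes were higher and 1689 lower, the same count of 4 members higher, and 4 lower in the ammonia list, 2 lower among carriers, 2 higher and 4 lower among regulators, 1 higher among channels and 1 lower in the KEGG list. DESeq2 gave 5 lower in the ammonia list, 2 lower among carriers, 0 higher among regulators, 1 higher among channels and 1 lower in the KEGG list. Without a filter 2 carriers were lower, with 2 regulators higher and 4 lower. The causes were not tested.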
